A study of Olea europaea with 6 samples.

Results

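Ripe olive fruits (RF) were compared with mature autumn leaves of the same cultivar, Ayvalik. The comparison rested on 5 arrays of the 11 in the series, chosen by organ and month alone: the 2 RF arrays of October against all 3 leaf arrays of November. The leaf arrays were 2 of mature leaves of the off year (OFF-M), collected in the same calendar year as the fruit, and 1 of mature leaves of the on year (ON-M), collected in the preceding calendar year. By the study's methods the fruit came from a tree in its on year, and on-year and off-year leaves from neighbouring trees. Organ and month therefore cannot be told apart here, nor can bearing year, calendar year and tree among the leaves. Unripe fruit of July (UF, 2 arrays) and July leaves of the off and on years (OFF-J and ON-J, 2 arrays each) served as the earlier season. The study states biological replicates, but nothing in hand says that the arrays of a group came from separate trees, so the p-values cover the spread between arrays and no more, and that spread can be technical.

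Each value is a log2 fluorescence intensity of a probe set, designed either on an olive expressed sequence tag (EST, a partial transcript sequence, such as FL683529_1) or on a gene model of poplar. A total of 54615 probe sets were tested, 5543 of olive and 49072 of poplar. An EST was called higher or lower in RF at a log2 difference of at least 2 (4-fold) and a two-sided adjusted p under 0.05 in limma, and a difference is RF minus the mean of the 3 leaf arrays, with its standard error (SE). The random control, a sequence made to match no transcript, read 5.36 and 5.48 on the RF arrays, against 5.24, 5.25 and 5.20 on the leaf arrays. The highest values of any olive probe set were 15.73 and 15.72 on the RF arrays, against 15.70, 15.71 and 15.70 on the leaf arrays. The medians of the olive probe sets were 9.83 and 10.22 in RF, against 11.34 and 11.40 in OFF-M and 10.66 in ON-M, so that the RF arrays were the dimmer ones for olive sequences as a whole.

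Olive leaves are evergreen and make the sugars that feed the tree and its fruit. The fruit is a drupe whose flesh stores oil and whose skin turns from green to purple and black as anthocyanins, pigments of the flavonoid pathway, build up and chlorophyll is lost. Leaves and fruit both carry a waxy cuticle, vascular strands and a rich set of terpenoids, among them triterpenoids of the surface and the secoiridoids that make olives bitter. A fruit sample can also hold seed tissue. In RNA of whole organs, fewer cells of a type and less RNA per cell cannot be told apart.

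Losses outnumbered gains in RF among olive ESTs as deposited. Of the 5543 olive probe sets, 239 were called higher (4.31%) and 980 were called lower (17.7%) in RF. Of the 980 losses, 440 (44.9%) were of at least 4 and 172 (17.6%) of at least 6, while of the 239 gains 60 (25.1%) and 26 (10.9%) were as large. Differences of at least 8 were held by 19 losses (1.94%) and 8 gains (3.35%). Among the 239 ESTs higher in RF, the median level was 12.86 and 13.04 on the RF arrays, against 8.96 and 9.08 in OFF-M and 7.78 in ON-M. Among the 980 lower ESTs it was 7.29 and 7.31 in RF, against 12.31 and 12.30 in OFF-M and 11.83 in ON-M. RF and leaf arrays did not overlap for 237 of the 239 and 978 of the 980 ESTs. A call already requires a difference of at least 2, which leaves little room for overlap, so this count adds no support. The share over all olive ESTs was not counted. The balance of both directions held with arrays centred on the median of all probe sets (226 higher and 998 lower). It also held with quantile normalization repeated (262 and 954). It turned with every array centred on its olive median, where 1073 were higher and 622 lower. That centring moved the median difference of olive ESTs to 0.94, against -0.17 as deposited, and that of all probe sets to 1.16, against 0.05. The share of calls higher in RF was then 63.3%, against 19.6% as deposited.

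**Figure D1:**
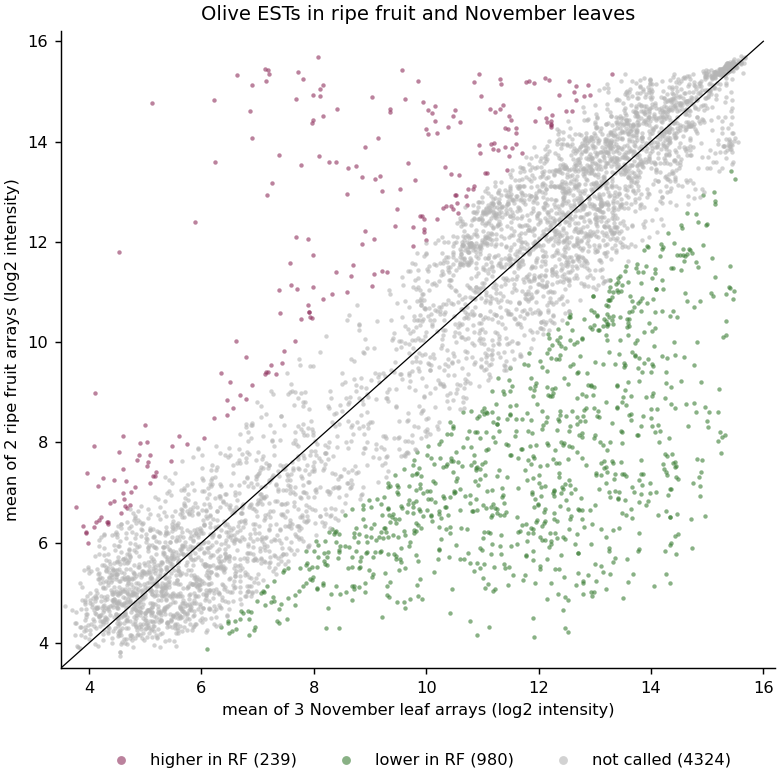
Mean log2 intensity of each olive EST over the 2 RF arrays (vertical axis) and the 3 November leaf arrays (horizontal axis), with 1 point per EST and a line where both means are equal. The 980 ESTs called lower in RF spread far below the line, whereas the 239 called higher form a thinner scatter above it. The median of the 980 was 7.29 and 7.31 on the RF arrays, and 122 of them (12.4%) had an RF mean below the random control.

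The choice of leaf moved the counts in both directions. Against OFF-M alone, 206 olive ESTs were higher in RF (3.72%) and 1080 lower (19.5%). Against the single ON-M array, 441 were higher (7.96%) and 843 lower (15.2%). Both comparisons use the same RF arrays. Among the 239 ESTs called higher in RF, OFF-M exceeded ON-M by a median of 0.68, among the 980 lower ones by 0.45, and over all olive ESTs by 0.26. The RF arrays differed from each other by a median of 0.32 over all olive ESTs and the OFF-M arrays by 0.14.

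The pigment and phenolic genes held some of the largest gains. Of 12 probe sets annotated with flavonoid, anthocyanin or phenylpropanoid processes, 5 were higher and 2 lower in RF, with a median difference of 1.24, against -0.17 over all olive and 0.07 over all poplar probe sets. Such lists hold probe sets that the study's own tables described, and those tables were chosen on these samples, so a list is not independent evidence of its direction. Of the 541 olive ESTs described there, 71 were higher (13.1%) and 131 lower (24.2%) in RF, and of the 167 poplar sets 13 (7.78%) and 31 (18.6%). Together they gave 11.9% higher and 22.9% lower, the shares against which the count of each list can be read. FL683529_1, annotated with anthocyanin biosynthesis, read 15.21 and 15.05 in RF, against 7.46 and 7.52 in OFF-M and 5.73 in ON-M, a difference of 8.23 (SE 0.24, adjusted p = 1.51e-07). Every RF value lay far above every leaf value.

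FL684182_1, a flavonoid biosynthesis EST, stood at 15.68 on both RF arrays, close to the highest olive values, against 8.22 and 8.70 in OFF-M and 7.30 in ON-M (difference 7.61, SE 0.28, adjusted p = 4.27e-07). A second anthocyanin EST, GO243553_1, read 14.61 and 14.79 in RF, against 10.94 and 11.33 in OFF-M and 8.21 in ON-M (difference 4.54, SE 0.25). FL684126_1, also of flavonoid biosynthesis, depended on the leaf it was set against. It read 15.20 and 15.22 in RF, against 13.40 and 13.44 in OFF-M but 8.65 in ON-M. Its difference of 3.38 (adjusted p = 3.03e-05) became 1.79, short of the call, without the ON-M array, and without that array 3 of the 12 list members were higher. Flavonols are relatives of anthocyanins made from shared precursors, and ESTs with flavonol terms went both ways. FL683529_1, higher in RF, is also annotated with the regulation of flavonol biosynthesis. GO243114_1, annotated with flavonol biosynthesis, was lower. It read 5.37 and 6.16 in RF, against 12.23 and 12.26 in OFF-M and 8.94 in ON-M (difference -5.38, SE 0.27, adjusted p = 2.35e-06).

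Among ESTs with an annotated process, those with the largest gains in RF also covered fatty acid, cell wall, water and stress terms. GO244028_1, annotated with fatty acid biosynthesis and oxidation-reduction, read 14.85 and 15.02 in RF, against 8.56 and 8.83 in OFF-M and 6.55 in ON-M (difference 6.95, SE 0.26). It was bright in UF as well, at 13.94 ± 0.05, against 9.18 ± 0.51 in July leaves (SD, n = 2 and 4). FL684044_1, an EST of the oxidative stress response, read 15.10 and 14.99 in RF, against 8.41 and 8.70 in OFF-M and 7.21 in ON-M (difference 6.94, SE 0.30). Unlike the fatty acid EST, it was dim in UF, at 6.19. FL684145_1, of glycolysis and lipid metabolism, was higher in RF by 4.86 (SE 0.29, adjusted p = 7.74e-06).

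**Figure D2:**
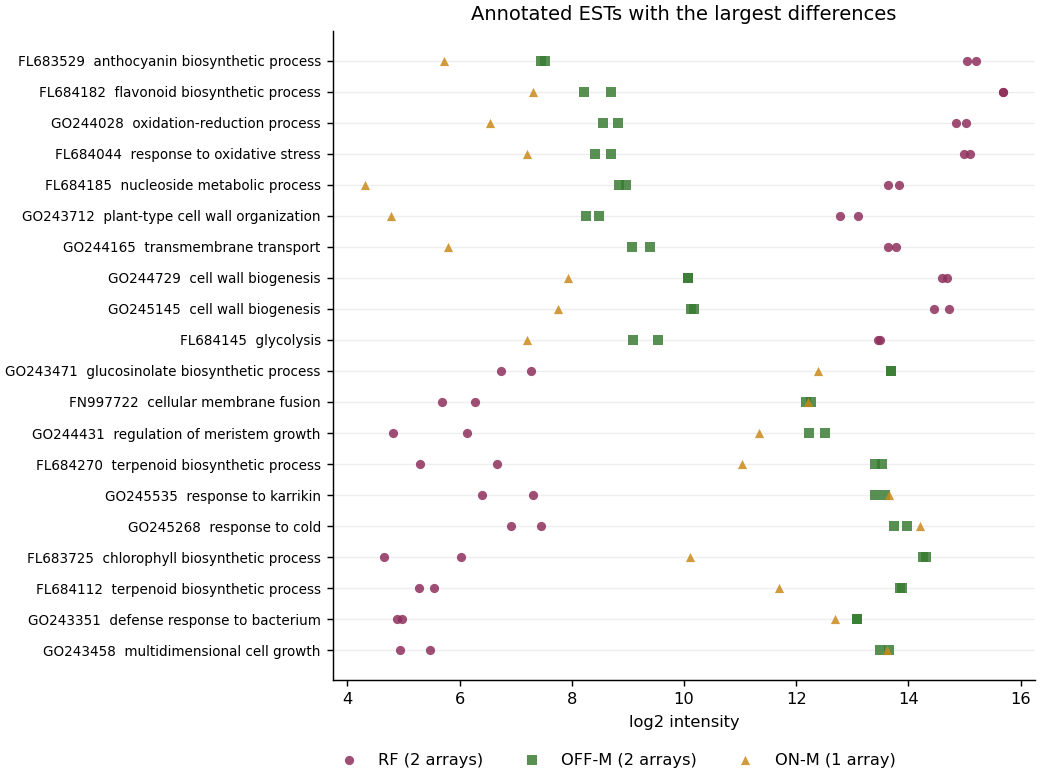
Log2 intensity (horizontal axis) of the 10 annotated olive ESTs with the highest and the 10 with the lowest difference, with 1 point per array: RF circles, OFF-M squares, ON-M triangles. Row names give the EST and the first annotated process. The ESTs were drawn from those without overlap of RF and leaf arrays, so the RF points are clear of the leaf points in every row by choice. In the upper 10 rows the ON-M array lies below both OFF-M arrays.

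Lipid genes as a group did not follow the fatty acid EST. Of 37 probe sets annotated with lipid or fatty acid processes, 3 were higher (8.11%) and 10 lower (27.0%) in RF, with a median of -1.07. These shares lie near the 11.9% and 22.9% of all described probe sets. Against OFF-M, 2 were higher and 16 lower, against ON-M 8 and 7, and with centring on olive medians 8 and 8. Among the lower ones were GO243798_1, of very long-chain fatty acids and the cuticle, at 6.62 and 6.46 in RF, against 11.65 and 11.77 in OFF-M and 10.08 in ON-M (difference -4.63, SE 0.18), and GO245017_1, of lipid transport. Cuticle genes gave 1 higher and 3 lower of 14 (7.14% and 21.4%), near the shares of all described probe sets, but 4 higher and 2 lower against ON-M and 4 and 3 with centring on olive medians. GO243189_1, of cutin biosynthesis, read 4.70 and 5.16 in RF, below the random control, against 10.35 and 10.67 in OFF-M and 8.51 in ON-M (difference -4.91, SE 0.25). Both cuticle ESTs were bright in UF, at 13.73 and 12.61.

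Cell wall genes split in both directions. Of 28 members, 3 were higher and 10 lower in RF, with a median of -0.57, and centring on olive medians gave 7 and 7. GO243712_1, annotated with cell wall organization, read 12.78 and 13.10 in RF, against 8.26 and 8.48 in OFF-M and 4.77 in ON-M (difference 5.77, SE 0.26). GO244287_1 carries the same annotation and read 5.71 and 6.21 in RF, against 11.80 and 11.72 in OFF-M and 8.08 in ON-M (difference -4.57, SE 0.24). The other 2 gains, GO244729_1 and GO245145_1, share the terms cell wall biogenesis and trichome morphogenesis and had nearly equal values on all 5 arrays (differences 5.29 and 5.25, SE 0.19 each), and whether they are separate transcripts is not known here. The lower members included GO243690_1, of cellulose and pectin metabolism (-4.25), and GO245399_1, of xylan biosynthesis, a main polymer of secondary walls (-3.26).

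Water transport genes, a class that includes the aquaporin channels, were also divided. Of 10 members, 4 were higher and 3 lower in RF, and 6 and 2 with centring on olive medians. GO244165_1 read 13.78 and 13.64 in RF, against 9.39 and 9.07 in OFF-M and 5.80 in ON-M (difference 5.62, SE 0.23, adjusted p = 6.94e-07), and GO245680_1, GO244702_1 and GO245690_1 were higher by 4.12, 3.93 and 3.42. GO244165_1, GO245680_1 and GO245690_1 are also annotated with the response to abscisic acid, a hormone of drought and ripening. GO244854_1 and GO244599_1, which carry urea transport beside water transport, were lower by 3.47 and 2.79 on the log2 scale. GO244854_1 read 7.30 and 4.99 in RF, a wide gap between replicates, against 10.13 and 10.20 in OFF-M and 8.51 in ON-M.

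The photosynthesis genes, taken as the marker list of leaf, were lower in RF for some members only. Of 17 members, 5 were lower (29.4%) and 2 higher (11.8%), against 22.9% and 11.9% of all described probe sets, and 10 were not called. Centring on olive medians gave 4 lower and 4 higher. The median level of the list was 6.17 and 6.31 in RF, against 7.99 and 7.72 in OFF-M and 8.93 in ON-M. GO243351_1, annotated with electron transport in photosystem I and assembly of photosystem II, the light-driven complexes of the chloroplast, read 4.88 and 4.98 in RF, below the random control, against 13.09 on both OFF-M arrays and 12.69 in ON-M (difference -8.02, SE 0.18, adjusted p = 1.3e-07). It was as bright in UF as in leaves, at 13.10. FL683725_1, of chlorophyll and terpenoid biosynthesis, read 6.03 and 4.66 in RF, against 14.26 and 14.31 in OFF-M and 10.10 in ON-M (difference -7.54, SE 0.37). GO244126_1, of the photosynthetic electron transport chain, was lower by 3.72 on the log2 scale. Against OFF-M alone, 8 of the 17 were lower. Both members called higher, GO244009_1 and the poplar set eugene3.02080002, had adjusted p of 0.0455 and 0.0145, and GO244009_1 read 9.69 and 6.31 in RF, against 3.72 and 3.96 in OFF-M and 7.42 in ON-M, so that its groups overlapped.

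Terpenoid genes included several deep losses. Of 16 members, 7 were lower and 1 was higher in RF, with a median of -1.85. With centring on olive medians the counts were 5 lower and 4 higher. FL684112_1 read 5.27 and 5.55 in RF, against 13.85 and 13.89 in OFF-M and 11.69 in ON-M (difference -7.74, SE 0.22, adjusted p = 1.43e-07), and FL684270_1 read 5.29 and 6.67, against 13.52, 13.40 and 11.04 on the same leaf arrays (difference -6.67). GO245362_1, of the same process, was lower by 4.71 on the log2 scale, and FL683981_1, of monoterpenoid biosynthesis, by 2.65. All 4 were also dim in UF relative to July leaves, with UF means of 8.01, 8.14, 10.23 and 9.71, against 13.73, 13.65, 14.49 and 14.67. The triterpenoid ESTs differed less from leaf. GO243666_1 and GO244544_1 had differences of -1.71 and -1.77, short of the call, and GO244699_1 one of -2.01. The isoprenoid EST GO244484_1 read 14.80 and 14.86 in RF, against 13.53, 13.52 and 13.08 in leaves (difference 1.46, not called).

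More probe sets with starch or sugar terms were lower than higher in RF as deposited. Of 28 members with terms beyond carbohydrate metabolism alone, 13 were lower and 5 higher, and centring on olive medians gave 7 lower and 9 higher. For 5 of them the sugar term is a response to a sugar only, among them FL683529_1 of anthocyanins and GO243351_1 of the photosystems, and the other 23 gave 12 lower and 3 higher. GO245268_1, of starch breakdown to maltose and of the response to cold, read 6.91 and 7.46 in RF, against 13.74 and 13.98 in OFF-M and 14.21 in ON-M (difference -6.79, SE 0.24, adjusted p = 3.21e-07). It stood at 7.48 in UF, against 12.05 in July leaves. GO245913_1, of carbohydrate metabolism and meristem growth, was lower by 5.61 on the log2 scale. A block of 97 ESTs annotated with carbohydrate metabolism alone, not known to be separate transcripts, gave 0 higher and 2 lower, but 40 higher against ON-M and 73 higher with centring on olive medians. The block's median level was 11.69 and 12.04 in RF, against 11.02 and 11.27 in OFF-M and 9.85 in ON-M.

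Among regulators, losses outnumbered gains as deposited. Of 47 probe sets annotated with transcription, 19 were lower (40.4%) and 2 higher (4.26%). Of 34 annotated with protein phosphorylation or signal transduction, 16 were lower (47.1%) and 4 higher (11.8%), where the poplar sets described in the same tables gave 18.6% lower and 7.78% higher. Centring on olive medians gave 9 lower and 4 higher and 7 lower and 7 higher. Most of both lists were poplar sets, with 9 and 6 olive members. The median level of the transcription list was 5.75 and 5.62 in RF, near the random control, against 7.70, 7.94 and 7.12 in leaves. For the phosphorylation list it was 5.63 and 5.46 in RF, against 7.46, 7.59 and 6.82 in leaves. Median differences of the lists were -1.89 and -1.98 against OFF-M, and -1.44 and -1.46 against ON-M. GO243458_1, annotated with cell growth and control of transcription, read 4.94 and 5.48 in RF, with a mean below the random control, against 13.49 and 13.65 in OFF-M and 13.61 in ON-M (difference -8.38, SE 0.25, adjusted p = 1.46e-07). FL684161_1, of signal transduction, was lower by 5.70 on the log2 scale, although it was bright in UF at 13.01.

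Hormone genes went both ways. Of 36 members, 6 were higher (16.7%) and 8 lower (22.2%), near the 11.9% and 22.9% of all described probe sets. Centring on olive medians gave 7 higher and 4 lower. GO245994_1, of the synthesis of jasmonic acid, a wound signal, read 14.62 and 14.63 in RF, against 10.83 and 10.92 in OFF-M and 8.33 in ON-M (difference 4.60, SE 0.26), and FL683585_1, of the response to jasmonic acid, was higher by 2.98. Among the 3 lower ESTs of salicylic acid metabolism, a route of defense signalling, GO246036_1 read 4.02 and 5.16 in RF, against 11.10 and 11.14 in OFF-M and 9.03 in ON-M (difference -5.83, SE 0.32). GO246421_1 and GO245488_1 were lower by 4.16 and 2.78. The wider list of defense genes gave 4 higher and 10 lower of 51 (7.84% and 19.6%), no more than the shares of all described probe sets. It gave 4 higher and 16 lower against OFF-M alone, and 17 higher and 4 lower with centring on olive medians.

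Ion transport genes gave 9 higher and 2 lower of 61 members, but the number of gains moved with single arrays. They numbered 16 without the first RF array, 5 without the second and 2 without the ON-M array. Against ON-M alone 24 were higher, and with centring on olive medians 28, with 2 lower in each. Of the members, 29 carry an identical string of terms for monovalent cation transport and are not known to be separate transcripts. GO246175_1, one of the gains with cation terms, read 8.94 and 10.46 in RF, against 7.33 and 7.70 in OFF-M and 5.33 in ON-M. Redox genes, a broad class of enzymes, gave 13 higher (19.1%) and 16 lower (23.5%) of 68. After centring on olive medians 24 were higher and 4 lower.

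**Figure D3:**
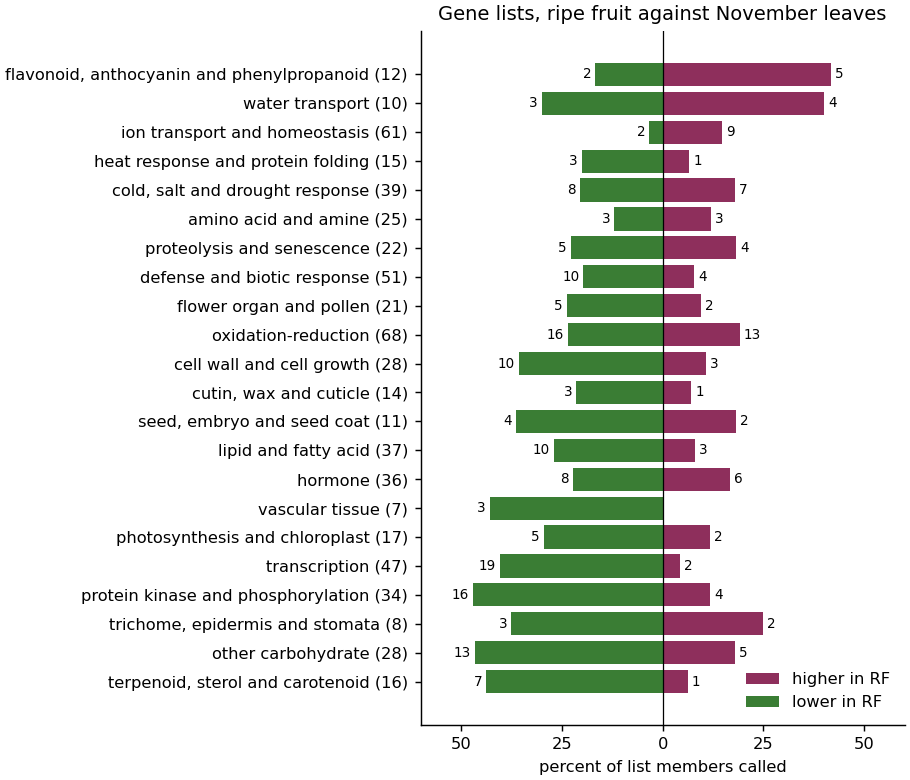
Percent of the members of 22 gene lists called higher in RF (right) or lower in RF (left), with the number of members in brackets, the number called at the end of each bar, and lists ordered by median difference. Flavonoid genes have 5 gains of 12 and water transport genes 4 of 10, an order that turned against OFF-M (3 and 4) and with centring on olive medians (7 and 6), and terpenoid, carbohydrate, kinase and transcription lists are weighted to the left. The block of 97 carbohydrate ESTs is not drawn.

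Marker lists of other tissues moved in both directions. Seed and embryo genes gave 2 higher and 4 lower of 11, and 4 and 3 with centring on olive medians. The gains, FN998508_1 and FN998379_1, are annotated with mucilage of the seed coat and were higher by 3.90 and 3.65. FN998508_1 read 14.22 and 14.35 in RF, against 10.81 and 11.05 in OFF-M and 9.31 in ON-M. It was bright in July leaves too, at 13.10, against 14.11 in UF. The median level of the seed list was 9.08 and 9.37 in RF, against 10.44 and 10.57 in OFF-M and 9.31 in ON-M. Leaf surface genes (trichomes, epidermis and stomata) gave 2 higher and 3 lower of 8, and the same counts with centring. The gains were GO244729_1 and GO245145_1, which are not known to be separate transcripts. Flower and pollen genes gave 2 higher and 5 lower of 21 (9.52% and 23.8%), near the shares of all described probe sets, and 6 higher and 2 lower with centring. Vascular genes gave 0 higher and 3 lower of 7, and 1 lower with centring. GO244677_1, of xylem and phloem patterning, had a difference of -6.07, and the other 2, GO245517_1 and GO245518_1, lost their call without the second RF array, at -1.69 and -1.50. The part of these tissues in the gene lists above was not tested.

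Most of the largest gains and losses were in ESTs with no annotated process, as are most olive ESTs: 355 of the 5543 (6.40%) have one, and so do 1 of the 10 highest and 1 of the 10 lowest differences. FN997922_1, an EST of a flower library, read 14.76 on both RF arrays, against 5.39 and 5.02 in OFF-M and 4.97 in ON-M, with a leaf mean below the random control (difference 9.63, SE 0.32, adjusted p = 2.5e-07). The fruitlet ESTs FL683591_1, FL684062_1, FL683898_1, FL684399_1 and FL683506_1 were higher by 8.70, 8.31, 8.24, 8.14 and 8.05, and GO243915_1 by 8.59. On the leaf side, GO244650_1 read 5.04 and 5.36 in RF, below the random control, against 14.44 and 14.42 in OFF-M and 14.17 in ON-M (difference -9.14, SE 0.20, adjusted p = 1.3e-07). GO243229_1, GO244680_1, FL683782_1 and GO245298_1 followed with differences of -8.91, -8.89, -8.84 and -8.68. A difference whose lower side is at the level of the random control depends in size on the background.

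A stricter pattern, bright (at least 10) on every array of an organ and dark (under 8) on every array of the other, was held by 17 ESTs for RF (0.307%) and 296 for November leaves (5.34%). Of the 17 fruit ESTs, 13 came from the fruitlet library, 3 from the library of leaves and fruits and 1 from the flower library. These libraries hold 1021, 3706 and 757 of the 5543 olive probe sets. The median of the 17 was 14.73 and 14.94 in RF, against 7.33 and 7.52 in OFF-M and 5.97 in ON-M. In UF, 11 of the 17 were dark on both arrays (64.7%), compared with 93.5% of the 1560 olive ESTs dark on every November leaf array, and 1, GO246063_1, was bright on both, at 13.55 and 13.53. Among the 17, FL683529_1 of anthocyanin biosynthesis was the one with an annotated process.

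Both UF arrays were bright for 191 of the 296 leaf ESTs (64.5%) and dark for 28 (9.46%). Among all 3082 olive ESTs bright on every November leaf array these shares were 92.9% and 1.27%, and over all olive ESTs 58.5% and 29.8%. All 4 July leaf arrays were bright for 281 of the 296 (94.9%), against 94.2% of those 3082 ESTs. Of the 296, 262 came from the library of leaves and fruits, which holds 3706 of the 5543 olive probe sets. GO243351_1 of the photosystems was bright in UF. GO245298_1 and GO243885_1 were dark in both fruit stages, with 6.38 and 5.15 and with 6.11 and 5.53 in RF and means of 4.46 and 5.90 in UF, against November leaf arrays of 14.17 or more.

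**Figure D4:**
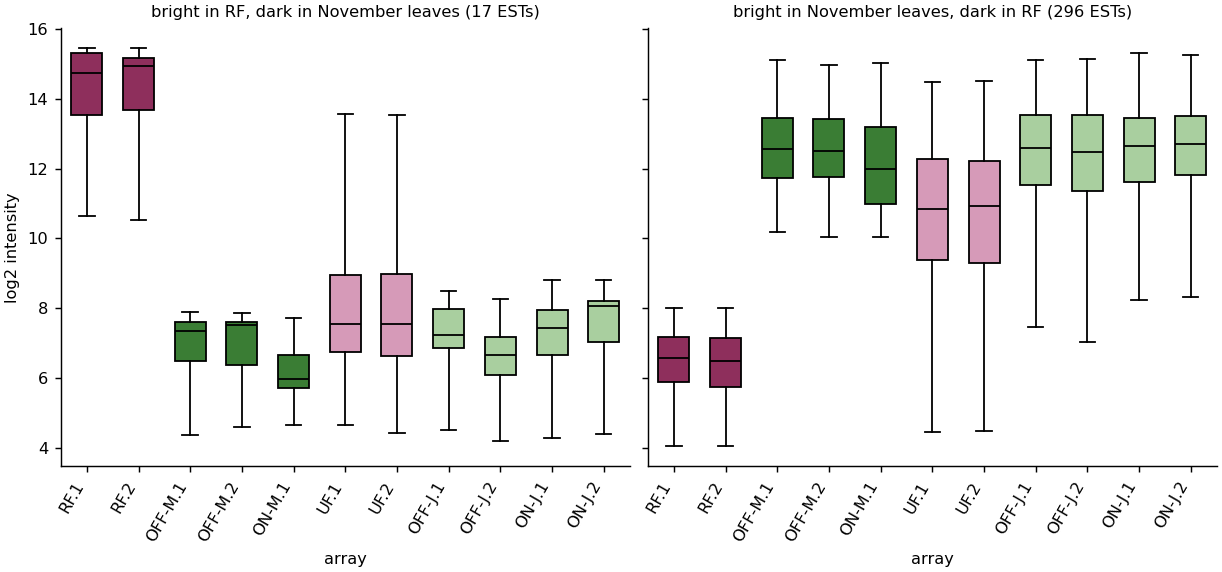
Log2 intensity on each of the 11 arrays of the 17 olive ESTs bright in RF and dark in November leaves (left) and of the 296 with the reverse pattern (right); boxes span the quartiles, lines mark medians and whiskers the full range. The RF and November leaf boxes were set apart by the choice of ESTs. UF and July leaf arrays were not used in the choice, but their levels mostly go with those of November leaves. Both UF arrays are dark for 64.7% of the ESTs at left, against 93.5% of all olive ESTs dark in November leaves. They are bright for 64.5% at right, against 92.9% of all olive ESTs bright in November leaves.

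The counts differed between the sources of the ESTs, and the cause was not tested. In the fruitlet library (cultivar Leccino), 77 of 1021 ESTs were higher (7.54%) and 104 lower (10.2%) in RF. In the library of leaves and fruits, 151 of 3706 were higher (4.07%) and 806 lower (21.7%). In the flower library, 9 of 757 were higher (1.19%) and 52 lower (6.87%). Median differences were -0.03, -0.29 and 0.08. Of 24 differential display fragments, 1 was higher (4.17%) and 11 lower (45.8%), with a median of -1.35. Of 35 olive probe sets with other IDs, 1 was higher (2.86%) and 7 lower (20.0%), with a median of -0.73. The library of leaves and fruits was the dimmest source in RF, with a median level of 8.58, against 10.90 in leaves.

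The fruit and leaf difference was then set against that of July, where UF was compared with the 4 July leaf arrays. None of these arrays is among the 5 compared in autumn, but all 11 share 1 estimate of the spread, and a fit on the 5 alone called 230 olive ESTs higher and 972 lower in RF. In July, 183 olive ESTs were higher in UF (3.30%) and 231 lower (4.17%). Of the ESTs higher in RF, 57 were also higher in UF, which is 23.8% of the 239 and 31.1% of the 183. Of those lower in RF, 186 were also lower in UF, which is 19.0% of the 980 and 80.5% of the 231. Opposite calls were no more frequent than over all olive ESTs. Of the 980 ESTs lower in RF, 26 were higher in UF (2.65%), against 3.30% of all olive ESTs. Of the 239 higher in RF, 1 was lower in UF (0.418%), against 4.17% of all olive ESTs. GO245994_1 of jasmonic acid was higher in both seasons, with 14.62 and 14.63 in RF and a mean of 15.17 in UF, against 9.19 in July leaves. FL684270_1 of terpenoids was lower in both.

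The change of the organ difference itself was tested as autumn minus July. It was positive for 206 olive ESTs (3.72%) and negative for 882 (15.9%). The largest positive value belonged to FL683591_1, at 15.36 and 15.31 in RF against 7.05, 7.46 and 5.38 in November leaves, and at 6.20 and 5.96 in UF against 7.18 to 8.39 in July leaves (10.49, SE 0.48). The kinase EST GO244011_1 turned its direction. It read 12.54 and 12.79 in RF, against 9.85, 9.85 and 8.74 in November leaves, but 5.15 and 5.01 in UF, against 10.76 to 11.41 in July leaves (9.23, SE 0.31). GO245017_1 of lipid transport turned the other way, at 7.21 and 6.66 in RF, against 13.65, 13.71 and 9.47 in November leaves, and at 14.33 and 14.09 in UF, against 8.84 to 10.76 in July leaves (-9.70, SE 0.39).

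**Figure D5:**
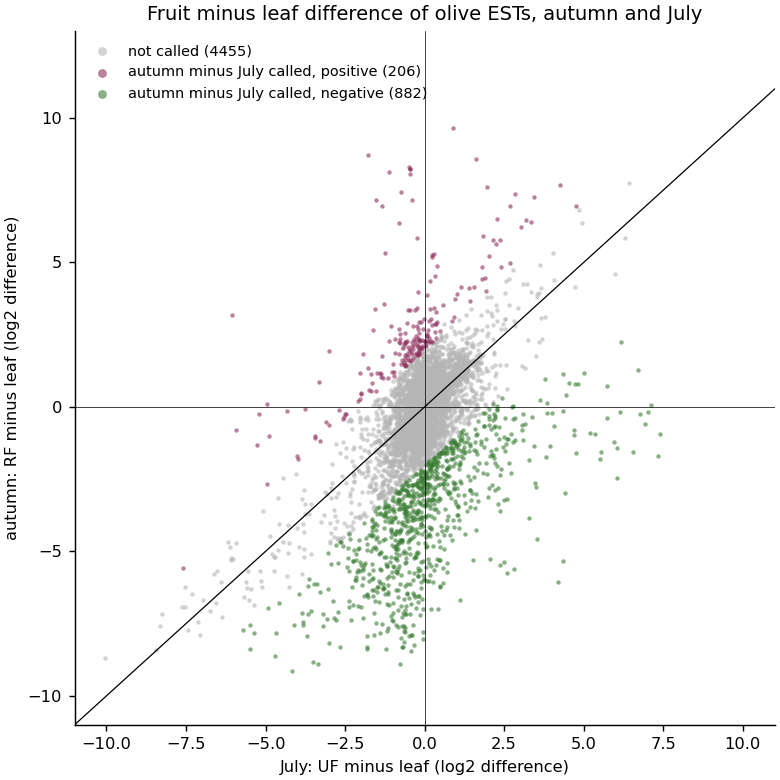
Log2 difference of each olive EST between fruit and leaf in autumn (RF minus November leaf, vertical axis) and in July (UF minus July leaf, horizontal axis), with a line where both are equal. The 882 ESTs with a negative change lie below the line, most of them near 0 in July, and the 206 with a positive change lie above it.

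Some ESTs bright in both organs barely differed. FN998153_1, FL684048_1, FL683947_1, FN997790_1 and UPK4_5_160 had the highest mean among ESTs with an absolute difference under 0.5. Their differences lay between -0.09 and 0.09 (SE 0.18 or 0.19), with values close to the top of the intensity scale. GO243651_1, of proteolysis, was less extreme in level and read 13.71 and 13.75 in RF, against 14.07, 13.82 and 13.45 in leaves (difference -0.05, SE 0.30), while it stood at 11.56 in UF and 9.88 in July leaves.

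Poplar probe sets gave 1835 higher (3.74%) and 1276 lower (2.60%) of 49072 in RF. The leaf mean was below the random control for 1193 of the 1835 (65.0%), and the RF mean for 735 of the 1276 (57.6%). The largest gains were fgenesh4_pg.C_LG_XV000317, at 9.53 and 10.66 in RF, against 4.05, 3.73 and 3.97 in leaves (difference 6.18, SE 0.32), and gw1.4858.1.1, at 14.32 and 14.07, against 8.05, 8.23 and 7.81 (6.17, SE 0.31). The deepest loss was gw1.XVIII.1651.1, at 4.26 and 4.10 in RF, against 12.59, 12.50 and 10.90 in leaves (-7.82, SE 0.22). Among poplar sets described in the study's tables, eugene3.00410220, annotated with histidyl-tRNA aminoacylation, read 11.03 and 8.29 in RF, against 4.24, 4.15 and 8.87 in leaves, so that its groups overlapped. Over all probe sets, 3705 were higher and 3405 lower without the first RF array, against 2074 (3.80%) and 2256 (4.13%) with it.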

How the data were processed

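RNA was labelled with Cy3 and hybridized to a custom one-colour oligonucleotide array. The authors quantified the scans, subtracted background, quantile-normalized, summarized by RMA and deposited log2 values per array, which were used unchanged. A deposited table of log2 averages equalled the array means. Of the 11 arrays in 6 groups, a second ON-M array was not analysed here. With limma 3.58.1 (R 4.3.3), 1 mean per group was fitted over 54615 probe sets (5 residual degrees of freedom, prior 3.67), the single ON-M array taken to vary like the others. P-values were adjusted by Benjamini-Hochberg over all probe sets. Tables and figures used Python 3.11.15, pandas 2.3.3, numpy 2.4.6 and matplotlib 3.10.9. The fit was tested on simulated data. Arrays, not counts, limit precision, so no depth applies. Annotations are the study's GO terms, for 708 probe sets; 0 IDs matched the reference gene table, and no sequences were used here. The members, lists and tests were chosen with earlier results of these data known. Named ESTs were the 10 highest and 10 lowest differences of olive ESTs without overlap of RF and leaf arrays, the same among annotated ones, up to 3 per list, those of the study's fruit table and qRT-PCR, the 5 highest and 5 lowest changes between seasons, the 5 brightest with a difference under 0.5, and the 5 highest and 5 lowest poplar sets, with the same among described ones. Other list members, and those in the on and off patterns, were named after their values were seen. Alternatives covered the test, arrays, weights, prior, thresholds, dim probe sets, scaling, replicate block and each array left out.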

Additional observations from a re-analysis of the deposited data

Results flagged for a closer look

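The fruit and leaf difference was not the same in autumn and July for 206 olive ESTs with a positive and 882 with a negative change, by the limma test of the difference between both contrasts. The 5 largest positive changes were 10.49 for FL683591_1, 9.24 for FL684399_1, 9.23 for GO244011_1, 8.82 for FL684062_1 and 8.75 for FN997922_1. The 5 largest negative changes were -10.28 for GO243695_1, -9.70 for GO245017_1, -9.03 for FL684196_1 of proteolysis, -8.48 for GO244977_1 of alcohol metabolism and ovule development, and -8.42 for GO245913_1. FL684196_1 and GO244977_1 were fruit ESTs of July, at 13.48 and 13.42 and at 13.51 and 13.44 in UF, against at most 6.45 and 8.12 in July leaves. In autumn FL684196_1 read 5.24 and 5.02 in RF, against 7.18, 7.72 and 5.55 in leaves, and its difference of -1.68 was not called. No group had enough arrays for a search for single arrays that stand apart.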

How the results depend on the processing

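Olive counts in this paragraph are higher and lower in RF, 239 and 980 as reported. They were 441 higher against ON-M alone, 1073 and 622 with centring on olive medians, 106 and 604 by the methods' t-test after adjustment, and 904 and 1690 at a log2 difference of at least 1. Olive counts with centring on array medians were 226 and 998, and with quantile normalization repeated 262 and 954. Over all probe sets, the reported 2074 and 2256 became 694 higher at a mean of at least 6, 11228 and 816 with centring on olive medians, 728 and 1210 by the adjusted t-test, and 8654 and 8333 at the limit of 1. The seasonal change (206 positive, 882 negative) became 722 and 543 with centring on olive medians and 580 and 1389 at the limit of 1. ESTs bright in RF and dark in leaves fell to 6 with limits of 9 and 7. The cause was not tested where the setting itself does not give it. Leaving out each array in turn gave 206 to 295 higher and 967 to 1080 lower olive ESTs, 1784 to 3705 and 2095 to 3405 probe sets, and 159 to 277 and 808 to 965 for the seasonal change. Without the first RF array the counts over all probe sets were 3705 and 3405. Replicate numbers did not pair the samples, with correlations of deviations between -0.05 and 0.15, and a replicate block gave 236 and 983. No named difference reversed, while 96 values of called probe sets lost their call, 47 of them under the adjusted t-test. The averaged table was compared by size only. Signal over background limits the sizes: the dimmer organ's mean was below the random control for 46 of the 239 and 122 of the 980 olive ESTs.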
